A study of Mus musculus with 8 samples.

Results

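The genes of the mitochondrial ribosome named Mrpl or Mrps were taken from a table of gene counts of B16F10 cells, a mouse melanoma line. A gene was a member if its symbol was Mrpl or Mrps followed by a number and at most 1 letter, and 77 of the 45556 named genes in the table were members. Symbols alone chose them, not their values. The cells were labelled either pLKO, a vector used to deliver hairpins and here the control, or shDRG2, for a hairpin against Drg2, the gene of a GTP-binding protein. They were left unstimulated or received recombinant mouse interferon-gamma (IFN-γ), a cytokine of T cells and natural killer cells, at 5 ng/ml for 24 h. The 4 groups pLKO, pLKO with IFN-γ, shDRG2 and shDRG2 with IFN-γ held 2 libraries each, 8 in all. The labels name 1 hairpin line and 1 control line, so a difference between pLKO and shDRG2 is a difference between these lines, and effects of the hairpin other than the loss of DRG2 cannot be told apart from it. Whether replicates came from separate cultures is not stated, and p-values therefore measure the spread between these libraries, which may be technical.

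The mitochondrial ribosome translates the few mRNAs encoded in mitochondrial DNA, all of them for subunits of the respiratory chain and ATP synthase. Its RNAs come from mitochondrial DNA, while every one of its proteins is encoded in the nucleus, made in the cytosol and imported. Part of these proteins descend from bacterial ribosomal proteins, and others are found in mitochondria only. Large subunit proteins carry the name Mrpl and small subunit proteins the name Mrps, with exceptions: the products of Mrps30 and Mrps18a sit in the large subunit, and Mrps36 is now known as a component of 2-oxoglutarate dehydrogenase. Sorted by these roles, the members were 30 large subunit genes with a bacterial counterpart, 20 large subunit genes without one, 16 small subunit genes with a counterpart, 10 without one, and Mrps36. They lie on 17 chromosomes in GENCODE mouse release M21 (GRCm38). Mrpl58 stands in the table under its older symbol Ict1 and was therefore not a member.

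Library totals ran from 25422758 to 36654519 counts, and every member had at least 277 counts in every library, so all 77 passed the filter on low counts. Drg2 was lower in shDRG2 than in pLKO cells (log2 fold change -3.01 without and -3.27 with IFN-γ). The 7 markers of the melanocyte lineage summed to between 9621 and 14944 CPM (counts scaled to library size) in every library. The 6 immune markers summed to between 0.465 and 1.30 CPM, the 5 fibroblast markers to between 4.10 and 19.5, the 4 endothelial ones to between 0.457 and 5.91 and the 4 epithelial ones to between 0.164 and 0.657. Cd3e, Itgam, Cdh5, Kdr, Epcam and Krt18 were at 0 in every library.

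The members together held nearly the same share of the counts in every library. That share was 0.409% and 0.418% in pLKO, 0.416% and 0.422% in pLKO with IFN-γ, 0.414% and 0.427% in shDRG2, and 0.419% and 0.427% in shDRG2 with IFN-γ. No group stood apart from all the others. The mitochondrially encoded mRNAs, which the mitochondrial ribosome reads, held 4.32% and 5.14% in pLKO, 3.87% and 4.30% in pLKO with IFN-γ, 4.85% and 5.06% in shDRG2, and 3.68% and 3.73% in shDRG2 with IFN-γ. In each line the libraries with IFN-γ were below those without, in pLKO by a narrow margin. In summed CPM the pLKO libraries overlapped, at 51462 and 41527 without IFN-γ and 39512 and 42901 with it. The shDRG2 libraries did not overlap, at 51150 and 47659 without IFN-γ and 38336 and 36774 with it. The summed CPM of large subunit genes was between 1.86 and 1.90 times that of small subunit genes in the 4 pLKO libraries and between 1.78 and 1.84 times in the 4 shDRG2 libraries, so that the lines did not overlap. Without Mrps6, described further on, the ratios were 1.99 to 2.03 in pLKO and 1.96 to 2.05 in shDRG2 libraries and overlapped.

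Although their products are joined in 1 particle, the members differed widely in mRNA level per kb of transcript. The median level over the 8 libraries was 37.9 CPM per kb, with the middle 50% of members between 22.4 and 55.3, and 53 of the 77 lay within 2-fold of the median. The highest were Mrpl20 at 146 CPM per kb, Mrps6 at 141, Mrpl12 at 138, Mrpl30 at 125 and Mrps21 at 104. Mrpl12 encodes the mitochondrial form of the stalk protein that contacts translation factors. The lowest were Mrpl32 at 6.36 CPM per kb, Mrps16 at 6.55, Mrpl1 at 6.66, Mrpl57 at 6.86 and Mrpl47 at 8.16. Mrpl32 encodes a large subunit protein that is trimmed by the m-AAA protease before it joins the ribosome. Class medians were 40.9 CPM per kb for large subunit genes with a bacterial counterpart and 35.8 for those without. For small subunit genes they were 39.4 and 28.5, with every class holding members both above and below the median of all. The highest and lowest member differed 23.0-fold with the median length of coding transcripts and 30.8-fold with all annotated exons merged. With merged exons, 3 of the 5 highest and 2 of the 5 lowest members stayed among the 5.

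**Figure D1:**
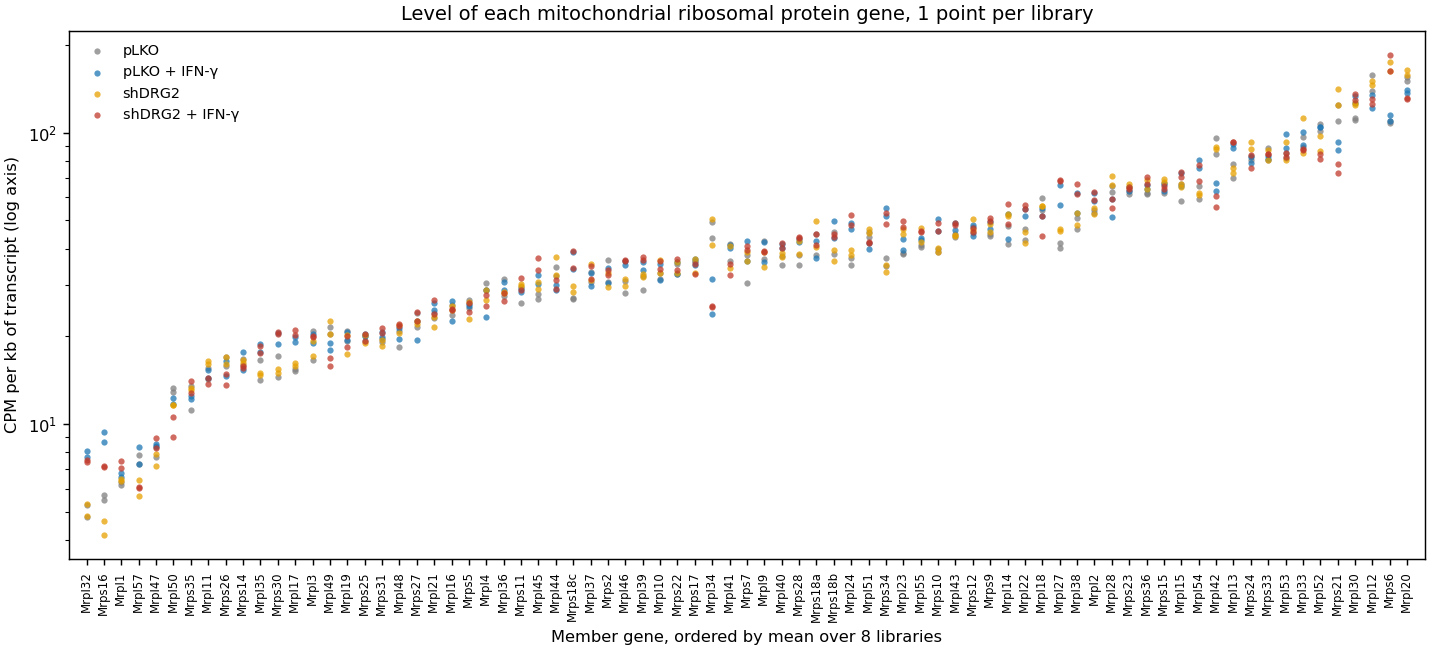
Level of each of the 77 members in CPM per kb of transcript (vertical log axis), ordered by the mean over the 8 libraries, with 1 point per library coloured by group. The points of a gene lie close together relative to the distance between genes, and Mrps6, near the upper end, splits by line.

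For shDRG2 against pLKO cells, the first question is whether the hairpin line differed in these genes. In the edgeR quasi-likelihood F test with Benjamini-Hochberg adjustment over all 13500 tested genes, 1 of the 77 members passed an adjusted p of 0.05, both without and with IFN-γ. Over all genes the share was 1.2% without and 1.67% with IFN-γ (0.467% and 0.504% as higher), and 1 of 77 is 1.30%. The member was Mrps6, the counterpart of a bacterial small subunit protein. Its level was 92.6 and 91.5 CPM in pLKO, 148.3 and 138.1 in shDRG2, 97.0 and 93.0 in pLKO with IFN-γ, and 156.1 and 137.5 in shDRG2 with IFN-γ. All 4 shDRG2 libraries were above all 4 pLKO libraries. In bulk samples, a change in the number of cells of a type and in RNA per cell cannot be told apart. Without IFN-γ Mrps6 rose 1.56-fold, or 0.64 on the log2 scale (SE 0.0835, adjusted p = 0.00589). With IFN-γ it rose 1.55-fold, or 0.63 (SE 0.0834, adjusted p = 0.00521). These comparisons share no library but concern the same lines. The adjusted p rose above 0.05 when 1 of some libraries was left out. Without IFN-γ it was 0.0680 without pLKO replicate 1, 0.0563 without pLKO replicate 2 and 0.0682 without shDRG2 replicate 1. With IFN-γ it was 0.0716 without shDRG2 IFN-γ replicate 1.

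Mrps6 lies on chromosome 16, from 92058270 to 92112227 on the plus strand (GRCm38), and its exons overlap those of 2 other genes. Slc5a3, the gene of a myo-inositol transporter, covers 10.4% of the Mrps6 exon bases on the same strand, and Gm49711 covers 19.9%. Slc5a3 was at 60.1 ± 11.6 CPM (SD, n = 2) in pLKO and 81.8 ± 6.38 CPM in shDRG2 cells, and at 56.2 ± 1.77 and 75.4 ± 7.59 CPM with IFN-γ. Its log2 fold changes were 0.45 (SE 0.126) and 0.43 (SE 0.126) and did not pass (adjusted p = 0.140 and 0.159), and the part of shared reads in the Mrps6 result was not tested. The stretch before the start of Mrps6 is shown because Mrps6 was the only member called between the lines, with both overlapping genes reading in the same direction. It is from RefSeq (GRCm38.p6), chr16:92058086-92058269, plus strand, 5′ to 3′:
Mrps6: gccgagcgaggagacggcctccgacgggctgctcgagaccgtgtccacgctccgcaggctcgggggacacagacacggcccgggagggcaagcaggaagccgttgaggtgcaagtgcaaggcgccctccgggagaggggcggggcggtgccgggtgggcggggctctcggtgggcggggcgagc
It held none of the 4 motifs searched in the promoters of the members (described further on).

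The other 76 members did not pass without IFN-γ and had values between -0.34 (Mrps16) and 0.25 (Mrpl23). With IFN-γ they were between -0.37 (Mrpl57) and 0.24 (Mrpl23). The 95% interval of the change lay within 1.5-fold in both directions for all 76 without IFN-γ and for 75 of them with it. The median over the members was 0.03 without and 0.02 with IFN-γ, against 0.01 and 0.00 over all tested genes. At an unadjusted p under 0.05 there were 5 and 8 of all 77 members, Mrps6 included (6.49% and 10.4%), against 12.8% and 11.97% of all tested genes.

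The lowest values between the lines belonged to the 3 members on chromosome 14. Mrps16, at 14.7 and 14.1 CPM in pLKO and 11.9 and 10.7 in shDRG2 cells, had -0.34 (SE 0.104, adjusted p = 0.168). Mrpl57 was at 20.96 and 22.5 CPM against 16.4 and 18.5 and had -0.32 (SE 0.107, adjusted p = 0.220). Mrpl52 was at 44.7 and 47.1 CPM against 38.2 and 42.8 and had -0.18 (SE 0.0830, adjusted p = 0.398). With IFN-γ the values were -0.34, -0.37 and -0.33, and for each gene both shDRG2 libraries were below both pLKO libraries. Over the 436 tested genes of chromosome 14 the median was -0.28 without and -0.27 with IFN-γ, with 89.2% and 88.5% of them below 0. The 3 members had the sign of their chromosome. With the replicate number as a block, 5 members passed with IFN-γ in place of 1, when 5% of all tested genes passed. Besides Mrps6 these were Mrpl52 (adjusted p = 0.0170), Mrpl57 (0.0314), Mrps16 (0.0479) and Mrps21 on chromosome 3 (-0.26, adjusted p = 0.0484).

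**Figure D2:**
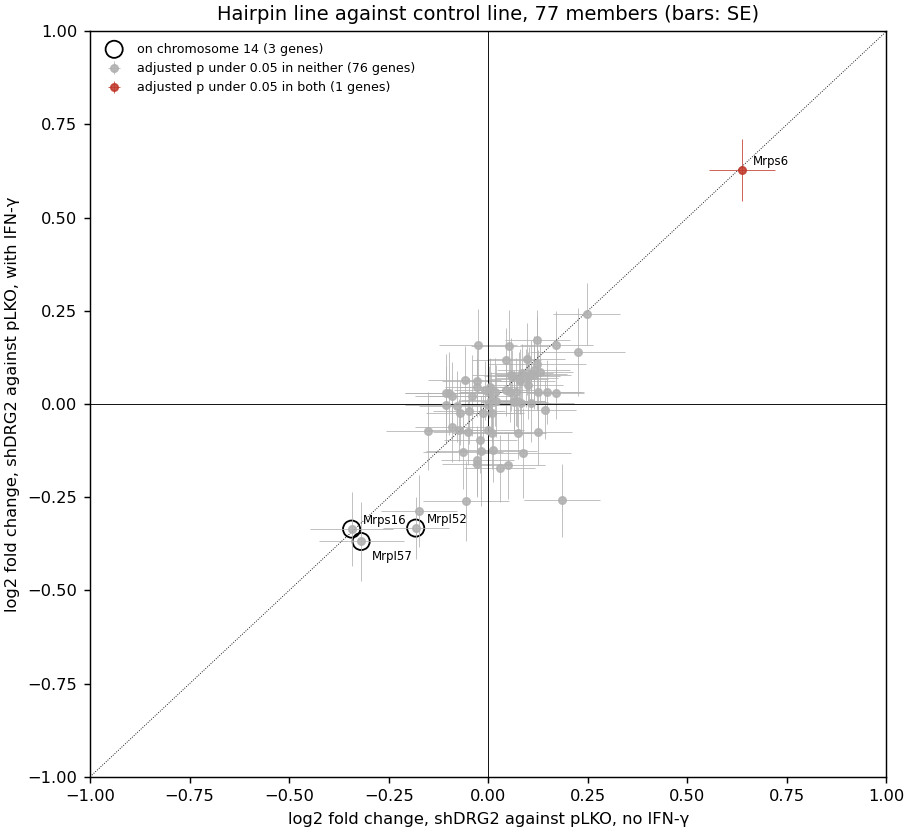
Log2 fold change of each member between shDRG2 and pLKO cells without IFN-γ (horizontal) and with IFN-γ (vertical), with bars of 1 SE and circles around the 3 members on chromosome 14. Mrps6 stands apart at 0.64 and 0.63, and the circled genes lie at the low end of both axes.

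After IFN-γ more members passed than between the lines, and mostly the same ones in pLKO and shDRG2 cells. In pLKO cells 13 members rose and 3 fell, which is 20.8% of 77, against 28.1% of all tested genes (15.4% higher, 12.7% lower). In shDRG2 cells 15 rose and 6 fell, which is 27.3%, against 31.4% of all (16.2% higher, 15.2% lower). So the members' share of calls was below the background in pLKO and near it in shDRG2 cells, and neither share was tested. The median change was 0.05 in pLKO and 0.03 in shDRG2 cells, against 0.01 and 0.00 over all genes. With upper-quartile scaling or with no scaling factor the split in pLKO was 11 up and 5 down, when 29.5% and 28.8% of all genes passed. In shDRG2 it was 11 up and 10 down with upper-quartile scaling (32.3% of all genes) and 13 up and 8 down with no factor (31.6%). With the replicate block 25 members passed in pLKO cells, 20 up and 5 down, when 38.3% of all genes did. In shDRG2 cells the block gave 29, 19 up and 10 down, when 41.7% of all genes passed.

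The same 14 members were called in both lines, all with the same sign. These are 87.5% of the calls in pLKO and 66.7% of those in shDRG2. The 2 comparisons share no library. Over all tested genes, 3252 were called in both lines, 85.7% of the pLKO calls and 76.8% of the shDRG2 calls. Of the 14, 11 rose (Mrpl13, Mrpl17, Mrpl24, Mrpl27, Mrpl32, Mrpl46, Mrps10, Mrps16, Mrps18c, Mrps30 and Mrps34) and 3 fell (Mrpl34, Mrpl42 and Mrps21). In at least 1 line 23 of the 77 members were called (29.9%), against 35.4% of all tested genes. They were 18 of the 50 large subunit genes (36%) and 5 of the 26 small subunit genes (19.2%).

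**Figure D3:**
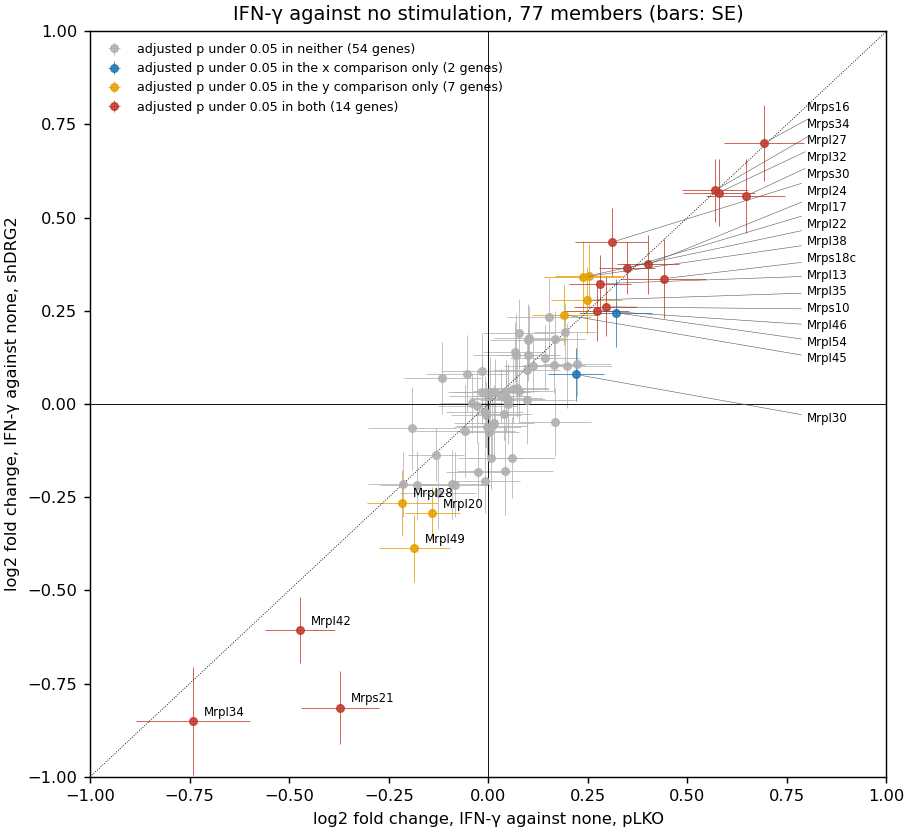
Log2 fold change of each member after IFN-γ in pLKO cells (horizontal) and in shDRG2 cells (vertical), with bars of 1 SE and names for the 23 members called in either line. The 14 members called in both lie along the diagonal, 11 above 0 and 3 below, and Mrps21 lies farther from 0 in shDRG2 than in pLKO cells.

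Among small subunit genes with a bacterial counterpart, 3 of 16 rose and 1 fell in each line. That is 25% in each, against 28.1% of all tested genes in pLKO and 31.4% in shDRG2 cells. Mrps16, on chromosome 14 (20389304 to 20393634, minus strand), was the member with the highest fold change. Its level was 14.7 and 14.1 CPM in pLKO and 24.2 and 22.4 with IFN-γ, and at 11.9 and 10.7 CPM in shDRG2 and 18.4 and 18.5 with IFN-γ. Libraries with and without IFN-γ did not overlap in either line. It rose by 0.69 (SE 0.100, adjusted p = 0.000515) in pLKO and 0.70 (SE 0.103, adjusted p = 0.000484) in shDRG2 cells. Its level in shDRG2 cells was below that in pLKO cells both with and without IFN-γ. Mrps10 rose by 0.29 and 0.26, and Mrps18c by 0.44 and 0.34.

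Mrps21, the counterpart of a bacterial small subunit protein, fell and lies on chromosome 3 (95862634 to 95871519, minus strand). Its level was 48.8 and 55.5 CPM in pLKO and 38.9 and 41.6 with IFN-γ, and at 55.6 and 63.1 CPM in shDRG2 and 32.4 and 34.9 with IFN-γ. The stimulated libraries were below the unstimulated ones in both lines, with the widest gap in shDRG2 cells. Its values were -0.37 (SE 0.0969, adjusted p = 0.0161) in pLKO and -0.82 (SE 0.0974, adjusted p = 0.000121) in shDRG2 cells. The difference between the 2 responses was -0.44 (SE 0.137, interval -0.75 to -0.14) and did not pass over all genes (adjusted p = 1.00).

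Of the 10 small subunit genes without a bacterial counterpart, 1 was called after IFN-γ in each line (10%). Over all tested genes the share was 28.1% in pLKO and 31.4% in shDRG2 cells. The member was Mrps34, which rose in both lines. Its level was 34.0 and 32.0 CPM in pLKO and 50.5 and 47.5 with IFN-γ, and at 32.2 and 30.5 CPM in shDRG2 and 48.6 and 44.7 with IFN-γ. It rose by 0.57 in each line (SE 0.0838 and 0.0842, adjusted p = 0.000581 and 0.000496). Mrps34 lies on chromosome 17, 24895116 to 24897502, plus strand, among genes whose exons overlap its own. Mapk8ip3, a scaffold for JNK signalling, covers 63.4% of its exon bases on the other strand, and Nme3, a nucleoside diphosphate kinase gene, covers 36.97% on the same strand. Under IFN-γ, Mapk8ip3 had -0.13 and 0.01, not called in either line, and Nme3 had -0.55 (not called) and -1.28 (called in shDRG2). The part of shared reads in the Mrps34 result was not tested.

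Large subunit genes with a bacterial counterpart held 7 calls of 30 in pLKO, 6 up and 1 down, and 10 in shDRG2, 7 up and 3 down. That is 23.3% and 33.3%, against 28.1% and 31.4% of all tested genes. Mrpl32, on chromosome 13 (14608184 to 14613165, minus strand), was at 15.9 and 14.5 CPM in pLKO and 23.1 and 24.3 with IFN-γ. In shDRG2 it was at 14.6 and 16.04 CPM, and at 22.4 and 22.6 with IFN-γ. It rose by 0.65 (SE 0.0984, adjusted p = 0.000732) and 0.56 (SE 0.0988, adjusted p = 0.00165). Mrpl27, whose bacterial counterpart reaches into the peptidyl transferase centre, lies on chromosome 11 (94653767 to 94660089, plus strand) and was at 30.5 and 31.7 CPM in pLKO and 42.6 and 50.1 with IFN-γ. In shDRG2 it was at 35.2 and 34.8 CPM and 52.0 and 51.7 with IFN-γ, and its values were 0.58 (SE 0.0903, adjusted p = 0.000860) and 0.57 (SE 0.0899, adjusted p = 0.000822). For both genes every stimulated library was above every unstimulated one. Mrpl24 rose by 0.40 and 0.37, Mrpl17 by 0.35 and 0.36, and Mrpl13 by 0.28 and 0.32.

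Mrpl34, on chromosome 8 (71464959 to 71465747, plus strand), had the lowest fold change of all members in both lines. It stood at 26.4 and 29.9 CPM in pLKO and 14.5 and 19.1 with IFN-γ, and at 25.03 and 30.7 CPM in shDRG2 and 15.4 and 15.5 with IFN-γ. Replicates differed more here than for most members, and still the stimulated libraries stayed below the unstimulated ones. The values were -0.74 (SE 0.143, adjusted p = 0.00326) and -0.85 (SE 0.144, adjusted p = 0.00124). In shDRG2 cells alone, Mrpl20 (-0.29, adjusted p = 0.00899) and Mrpl28 (-0.27, adjusted p = 0.0455) also passed as lower and Mrpl22 (0.34) and Mrpl35 (0.28) as higher. In pLKO cells these 4 had -0.14, -0.22, 0.25 and 0.25 and did not pass. Mrpl30 passed in pLKO cells (0.22, adjusted p = 0.0415) and had 0.08 in shDRG2 cells.

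Of the 20 large subunit genes without a bacterial counterpart, 3 rose and 1 fell in pLKO and 4 rose and 2 fell in shDRG2 cells. That is 20% and 30%, against 28.1% and 31.4% of all tested genes. Mrpl42, on chromosome 10 (95480805 to 95501940, minus strand), was at 63.5 and 55.9 CPM in pLKO and 44.3 and 41.8 with IFN-γ. In shDRG2 it was at 58.9 and 58.2 CPM, and at 36.8 and 40.04 with IFN-γ. It fell by 0.47 (SE 0.0876, adjusted p = 0.00251) and 0.61 (SE 0.0880, adjusted p = 0.000457) on the log2 scale. Mrps30, a large subunit gene in spite of its name, rose by 0.31 and 0.43, and Mrpl46 by 0.27 and 0.25. Mrpl54 passed in pLKO only (0.32, and 0.24 in shDRG2 with an adjusted p of 0.0668). In shDRG2 cells only, Mrpl38 (0.34) and Mrpl45 (0.24) passed as higher and Mrpl49 (-0.39, adjusted p = 0.00797) as lower, and in pLKO cells these had 0.24, 0.19 and -0.19.

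**Figure D4:**
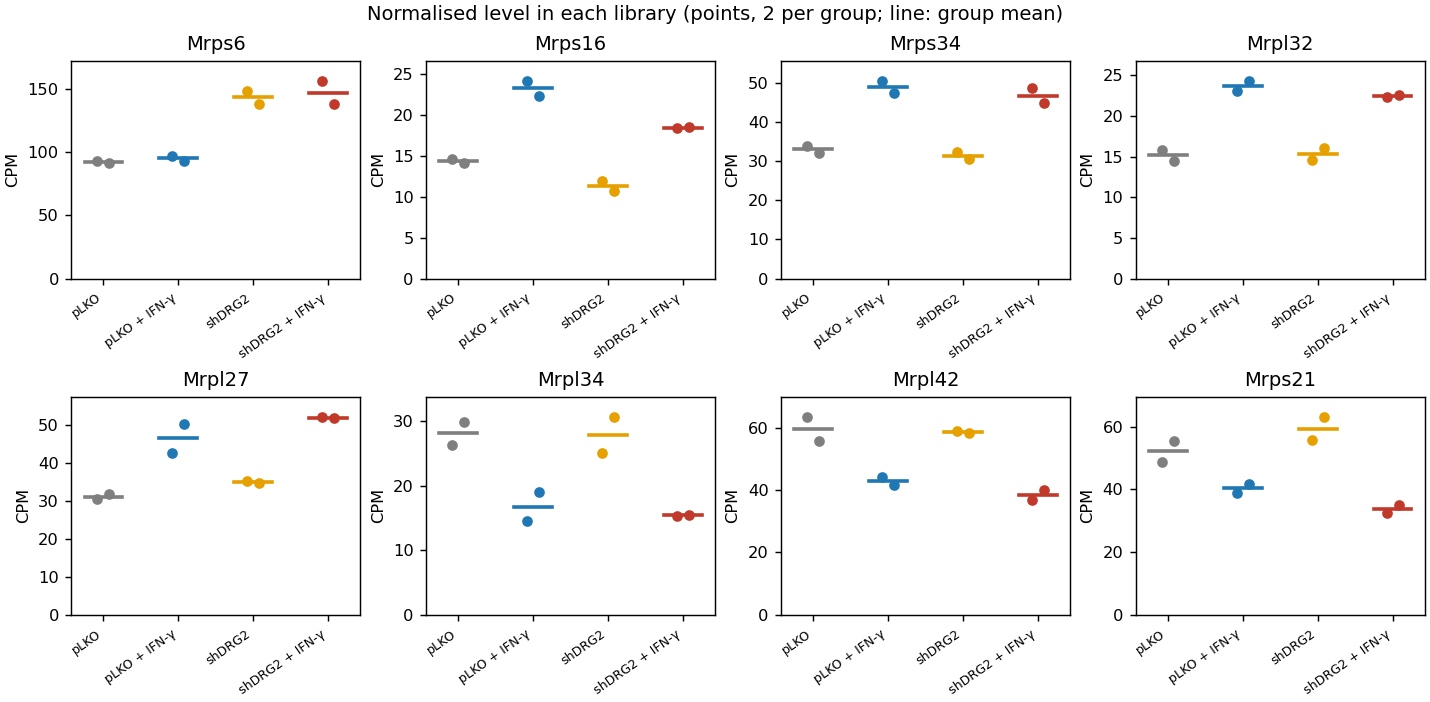
CPM of 8 members in each library, with 2 points per group and a line at the group mean, on axes that start at 0. Mrps6 separates the lines, Mrps16, Mrps34, Mrpl32 and Mrpl27 are higher with IFN-γ in both lines, and Mrpl34, Mrpl42 and Mrps21 are lower.

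For a call that passed in 1 line only, the difference between the lines' responses was itself tested. In the edgeR test of that difference 0 of 77 members passed, when 0.00741% of all genes did, and DESeq2 called 0 as well. At an unadjusted p under 0.05 there was 1 member, Mrps21 (1.30% of 77), against 2.38% of all tested genes. The interval of the difference lay within 1.5-fold for 75 of the 77, and values ran from -0.44 (Mrps21) to 0.18 (Mrps27). Members not called after IFN-γ numbered 61 in pLKO and 56 in shDRG2 cells, and the interval of every one of them lay within 1.5-fold in both directions. Over all 5 comparisons 53 members were never called, 19 and 13 large subunit genes with and without a bacterial counterpart, 11 and 9 small subunit genes, and Mrps36. The share of all tested genes never called over the 5 comparisons is not given here. After IFN-γ alone, 29.9% of members and 35.4% of all tested genes were called in at least 1 line. Mrpl12, among the most abundant, had -0.21 in pLKO and -0.22 in shDRG2 cells (adjusted p = 0.0958 and 0.0880), and with the replicate block it passed in both (0.0190 and 0.0171). The block called 10 of these 53 members in at least 1 comparison, the others being Mrpl2, Mrpl39, Mrpl44, Mrpl50, Mrpl52, Mrpl57, Mrps18b, Mrps26 and Mrps28. Over all tested genes the block called 5% between the lines with IFN-γ. After IFN-γ it called 38.3% in pLKO and 41.7% in shDRG2 cells.

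After IFN-γ, 8 of the 16 calls in pLKO and 10 of the 21 in shDRG2 cells held under every alternative processing and with any library left out. Mrps16, Mrps34, Mrpl17, Mrpl24, Mrpl27, Mrpl32, Mrpl34 and Mrpl42 did so in both lines, and Mrps21 and Mrps30 in shDRG2 only. Among changes of processing, DESeq2 ended 2 calls in pLKO cells (Mrpl30 and Mrpl46). In shDRG2 cells it ended 5 (Mrpl28, Mrpl45, Mrpl46, Mrps10 and Mrps18c). In pLKO and shDRG2 cells, upper-quartile scaling ended 2 and 4, no scaling factor 2 and 2, no filter 1 and 1, and only the groups compared 3 and 2. RLE scaling and leaving out chromosome 14 each ended 1 in shDRG2 cells (Mrpl28). For the runs with 1 library left out, which follow, the share of all tested genes called is not given here. In pLKO cells 8 calls ended without pLKO replicate 2 (Mrpl13, Mrpl30, Mrpl46, Mrpl54, Mrps10, Mrps18c, Mrps21 and Mrps30, adjusted p from 0.0536 to 0.196). There 7 ended without pLKO IFN-γ replicate 1 (the same genes but Mrps18c, 0.0577 to 0.122), 4 without IFN-γ replicate 2 (Mrpl13, Mrpl30, Mrpl46 and Mrps18c, 0.0603 to 0.222) and 4 without pLKO replicate 1 (Mrpl30, Mrpl46, Mrps10 and Mrps18c, 0.0533 to 0.196). In shDRG2 cells 9 calls ended without IFN-γ replicate 1 (Mrpl13, Mrpl20, Mrpl28, Mrpl35, Mrpl38, Mrpl45, Mrpl46, Mrpl49 and Mrps10, 0.0533 to 0.278). Without shDRG2 replicate 2, 9 ended (the same but Mrpl20, with Mrps18c in its place, 0.0543 to 0.168). Without shDRG2 replicate 1, 8 ended (Mrpl20, Mrpl22, Mrpl28, Mrpl35, Mrpl45, Mrpl46, Mrps10 and Mrps18c, 0.0528 to 0.210), and without IFN-γ replicate 2, 7 did (the same but Mrpl45, 0.0538 to 0.242).

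Many members start next to a gene on the other strand that is read away from them, so that 1 short stretch of DNA lies before both starts. Counting starts at most 1000 bp apart in GENCODE M21, 18 of 77 members (23.4%) had such a protein-coding neighbour, tested or not. Among tested protein-coding genes it was 1257 of 11450 (10.98%). The neighbours of all 18 members were tested. In 17 of the 18 pairs the starts were at most 207 bp apart. The member and its neighbour had the same sign after IFN-γ in 12 of the 18 pairs in each line, and both were called in 3 pairs in pLKO and 2 in shDRG2 cells, always with the same sign. Mrpl32 starts 75 bp from Psma2, which encodes a subunit of the proteasome core. Psma2 was at 104 ± 2.47 CPM (SD, n = 2) in pLKO and 201 ± 5.82 with IFN-γ, and rose by 0.95 and 0.96 in the 2 lines while Mrpl32 rose by 0.65 and 0.56. Mrps34 starts 29 bp from Eme2, a DNA repair endonuclease gene, which rose by 0.71 and 0.70 beside 0.57 and 0.57 for Mrps34. Mrpl30 starts 66 bp from Mitd1, a gene of cell division, which rose by 1.26 and 1.46 beside 0.22 and 0.08 for Mrpl30. The Mrpl30 call, in pLKO cells only, ended in DESeq2 (adjusted p = 0.0875) and in edgeR without the filter (adjusted p = 0.0865).

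In some other pairs 1 gene was called and the other was not, whether or not their signs were the same. Pnpla7, a lysophospholipase gene 935 bp from Mrpl41, rose by 1.67 and 1.96, and Mrpl41 had 0.06 and -0.14 and was not called. Mrps18c rose in both lines, and Helq, a helicase gene 29 bp away, had -0.07 and -0.03. Ncapd2, a condensin gene 100 bp from Mrpl51, fell by 0.52 and 0.54, and Mrpl51 had -0.13 and -0.14 and was not called.

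**Figure D5:**
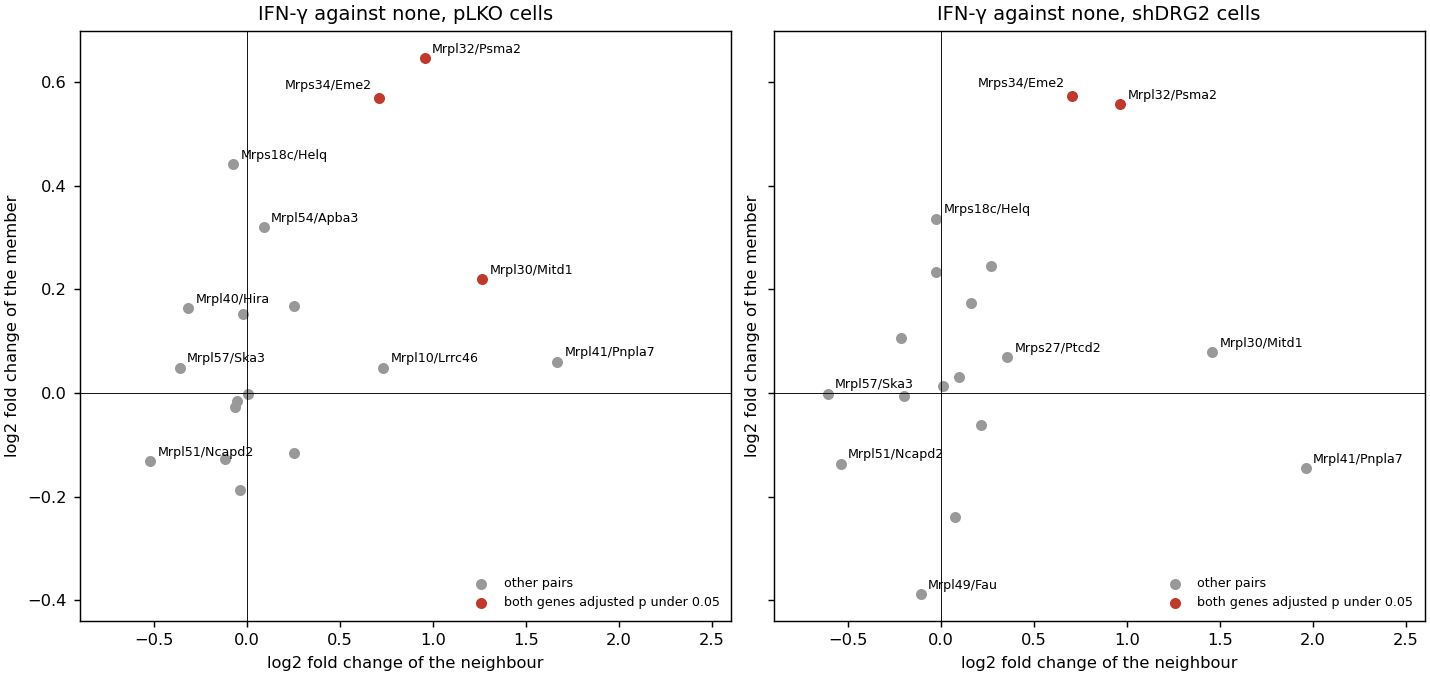
Log2 fold change after IFN-γ of 18 members (vertical) against that of the neighbouring gene read in the other direction from a start within 1000 bp (horizontal), in pLKO cells (left) and shDRG2 cells (right). Red points are pairs with both genes called, 3 in pLKO and 2 in shDRG2 cells, all at the upper right, and Mrpl41 with Pnpla7 lies far to the right near a member change of 0.

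The DNA before 4 members called after IFN-γ, Mrpl30 in pLKO cells only, is printed to show the space between paired starts and the motif letters found. Sequences are from RefSeq (GRCm38.p6), 5′ to 3′ on the strand of the member and free of annotated exons, the longest such part of the 250 bases before the RefSeq start. For Mrpl32 and Mrpl30 they are the whole stretch up to the neighbouring Psma2 and Mitd1. Their places are chr13:14613166-14613239 (minus strand) for Mrpl32, chr1:37890412-37890476 (plus) for Mrpl30, chr14:20393635-20393884 (minus) for Mrps16 and chr3:95871686-95871764 (minus) for Mrps21. Capitals mark the letters of the motif of interferon regulatory factors in Mrps21, and the other stretches held none of those searched.
Mrpl32: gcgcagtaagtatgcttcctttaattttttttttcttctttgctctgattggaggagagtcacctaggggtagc
Mrpl30: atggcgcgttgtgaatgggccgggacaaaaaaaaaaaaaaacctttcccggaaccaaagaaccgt
Mrps16: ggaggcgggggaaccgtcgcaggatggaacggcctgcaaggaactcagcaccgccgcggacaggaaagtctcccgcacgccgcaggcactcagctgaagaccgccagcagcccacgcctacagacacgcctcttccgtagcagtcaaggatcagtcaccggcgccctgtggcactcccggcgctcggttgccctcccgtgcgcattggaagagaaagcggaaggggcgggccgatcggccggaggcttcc
Mrps21: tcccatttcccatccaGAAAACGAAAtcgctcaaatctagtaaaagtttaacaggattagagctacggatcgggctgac

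Promoter windows of 250 bases before and 50 after the start were at hand for 68 members and 27025 genes, and 4 motifs were searched on both strands. The core of ETS factor sites (CCGGAAG), the family of GABP, which is known for regulating nuclear genes of mitochondria, was in the windows of 25 members (36.8%), against 9.93% of all genes and 20.7% of tested genes. The YY1 motif (AAGATGGC) was in 12 members (17.6%, against 3.19% of all and 5.45% of tested genes), and the NRF1 motif (GCGCA joined to TGCGC) in 3, Mrpl32, Mrpl39 and Mrpl9 (4.41%, against 1.07% and 2.44%). The motif of interferon regulatory factors (GAAA, any 2 bases, GAAA) was in 3 (4.41%, against 3.99% and 3.74%): Mrpl20, Mrps18c and Mrps21. Of the 19 members with a window that were called after IFN-γ in either line, 7 held the ETS core (36.8%), 4 the YY1 motif (21.1%), 1 the NRF1 motif (5.26%) and 3 the motif of interferon regulatory factors (15.8%). Over the 3537 genes with a window that were called in either line, the shares were 16.3%, 4.18%, 1.72% and 5.60%. The 3 with the last motif were Mrps18c, called as higher, and Mrps21 and Mrpl20, called as lower. A match describes letters in a window and shows no binding.

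Other genes of mitochondrial translation, listed by role, were set beside the members. Between the lines none of the 86 genes on these lists passed, without or with IFN-γ, in edgeR or DESeq2. Over all tested genes 1.2% and 1.67% passed in edgeR. At an unadjusted p under 0.05 there were 3 and 6 of the 86, against 12.8% and 11.97% of all tested genes. After IFN-γ, of 22 genes for assembly of the mitochondrial ribosome and modification of its RNA, 2 rose in each line. They were Nsun4, a methyltransferase of its small RNA that also acts in subunit joining (0.54 and 0.66), and Malsu1, which binds the large subunit (0.41 and 0.33). Of 15 translation and mRNA stability factors, 2 rose and 1 fell in pLKO, and 1 rose and 1 fell in shDRG2 cells. The release factor gene Mtrf1 (0.54) and Slirp (0.49) rose in pLKO, and the ribosome recycling factor gene Gfm2 (0.33) in shDRG2 cells. Lrpprc, whose protein stabilises mitochondrial mRNAs together with SLIRP, had -0.29 in both lines and passed in both.

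Of 17 mitochondrial tRNA synthetase genes 2 rose in pLKO, Tars2 (0.36) and Rars2 (0.32), and 3 in shDRG2 cells, Tars2 (0.42), Rars2 (0.42) and Fars2 (0.41). Of 14 regulators of mitochondrial transcription and biogenesis, 1 rose and 4 fell in pLKO, and 2 rose and 4 fell in shDRG2 cells. Tefm, the elongation factor of mitochondrial transcription, rose by 0.54 and 0.68. The largest falls in pLKO were in Esrra (-0.50) and Ppargc1b (-0.42), a nuclear receptor gene and a coactivator gene. In shDRG2 cells Tfb2m (-0.40), a mitochondrial transcription factor gene, and Nrf1 (-0.39) led. Of the 13 mitochondrially encoded mRNAs 3 fell in pLKO and 6 in shDRG2 cells, with medians of -0.28 and -0.47. The lowest called ones were mt-Nd4l in pLKO (-0.45) and mt-Cytb in shDRG2 cells (-0.69). Of these 13, 10 had values below 0 in pLKO and 13 in shDRG2 cells. DESeq2 called 5 of them in pLKO and 8 in shDRG2 cells. Over all tested genes edgeR called 28.1% and 31.4%. The members' median was 0.05 and 0.03. None of the 5 subunit genes with other names (Dap3, Ptcd3, Chchd1, Aurkaip1 and Gadd45gip1) passed in either line in edgeR or DESeq2. At an unadjusted p under 0.05 in edgeR there were 2 and 0 of them, against 38.4% and 41.2% of all tested genes.

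The 3 paralogs of Mrps18 did not move alike. Mrps18c rose after IFN-γ in both lines, Mrps18b had 0.15 and 0.23 (adjusted p = 0.325 and 0.124, and 0.0223 in shDRG2 with the replicate block), and Mrps18a, whose product is in the large subunit, had -0.06 and -0.07 (adjusted p = 0.778 and 0.704). Mrps36 had 0.07 and 0.04. Ict1, the large subunit gene outside the symbol rule, encodes a peptidyl-tRNA hydrolase built into the ribosome. It had 0.22 and 0.21 between the lines and 0.10 and 0.08 after IFN-γ, and was not called.

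The values of some members rest on reads that other genes could have shared. In GENCODE M21 transcripts, 56 members shared at least 1 stretch of 31 bases with another gene, 15 shared over 25% of theirs and 6 over 50%. Those 6 were Mrpl53 (100%, with Gm42688), Mrps25 (74.6%, with Nr2c2), Mrps18b (59.6%), Mrps34 (55.6%, with Mapk8ip3), Mrpl27 (54.0%) and Mrpl23 (53.0%, with its pseudogene Mrpl23-ps1). Called members between 25% and 50% included Mrpl22 (43.2%, with Gm6997), Mrpl24 (39.0%, of which 33.4% with Rrnad1) and Mrps6 (33.8%, with Gm49711). Mrps18c (32.3%) and Mrpl42 (26.04%, with Gm6419) were the other called ones. Mrpl19, Mrpl33, Mrpl43 and Mrps36, never called, were also in that range. How the upstream counting divided such reads is not given in the sources used here, so the values of these members are less certain than those of the others.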

How the data were processed

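RNA was sequenced from 8 libraries of B16F10 cells, made with a TruSeq kit per the labels' protocols, which state both 100-base and 150-base paired reads. The authors deposited estimated counts of reads per gene without scaling to depth, and the submitters' processing notes name STAR, Salmon 1.5.2 and mm10. For the role of each tool, the annotation and strandedness, nothing is given in the sources used here. Among values above 0, 86.4% lay within 0.0015 of a whole number. Of 45583 rows, 27 with a date for a gene name were left out (0.204% to 0.212% of counts).

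Counts were rounded and fitted in R 4.3.3 with edgeR 4.0.16 (filterByExpr, TMM, quasi-likelihood, 1 coefficient per group, all 8 libraries, 4 residual degrees of freedom, common biological coefficient of variation 8.49%). The F test is two-sided. Adjusted p-values are Benjamini-Hochberg over 13500 genes and called at 0.05. Fold changes are log2 with their SE, and CPM uses TMM-adjusted library sizes. The procedure was tested on simulated data. Libraries held 25422758 to 36654519 counts, and the lowest count of a member was 277. Alternatives were DESeq2 1.42.0, other scalings, no filter, only the groups compared, chromosome 14 left out, each library left out, and the replicate number as a block. Deviations from group means of same-numbered libraries correlated across genes in all 6 pairs of groups (r from 0.107 to 0.274). Over the members alone r ran from 0.0828 (pLKO with shDRG2 and IFN-γ) to 0.694 (pLKO with pLKO and IFN-γ). The labels give the numbers and state no shared batch, so the block is an alternative.

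Levels per kb used the median length of coding transcripts in GENCODE M21, with merged exons as an alternative. The median length was chosen as the main measure after both lengths were seen. The subunit ratio without Mrps6 was also chosen after seeing the data. Members and lists were chosen with earlier results of these data known. The rule for naming took up to 15 called members per comparison by size, the next smallest p-values up to 5, the 5 highest and lowest levels, and paralogs. Mrpl20, Mrpl28, Mrpl30, Mrpl35 and Mrpl45, the neighbours of members, overlapping genes, Ict1, the printed sequences, the genes plotted by library, the motifs, and the analyses of neighbours and shared stretches were chosen after values were seen.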

Additional observations from a re-analysis of the deposited data

How the results depend on the processing

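No called member changed sign under any alternative run. With the replicate block, members called between the lines with IFN-γ went from 1 to 5, when the share of all tested genes went from 1.67% to 5%. Members called after IFN-γ in pLKO cells went from 16 to 25, when that share went from 28.1% to 38.3%. After IFN-γ in shDRG2 cells the total went from 21 to 29, when the share of all tested genes went from 31.4% to 41.7%. The members called lower there went from 6 to 10. The block left the totals without IFN-γ between the lines (1) and for the difference between responses (0) as they were. With 1 library left out, members called numbered from 0 to 1 between the lines both without and with IFN-γ, from 8 to 17 after IFN-γ in pLKO cells, and from 12 to 21 in shDRG2 cells. The difference between responses had 0 calls in edgeR with each scaling and with the block. It also had 0 in DESeq2, which was run on all 8 libraries only. In the main edgeR fit 1 member had an unadjusted p under 0.05. A group left with 1 library is assumed to vary like the others. For the runs with 1 library left out, the share of all tested genes called is not given here. Fewer member calls in those runs therefore cannot be told apart from fewer calls over all genes. Of 39 calls, 18 held under all alternatives. Of 708 recomputed values of named members, 663 kept their side of the threshold, 42 lost the call, 3 gained it and 0 changed sign after a call. Medians over the members stayed between -0.04 and 0.08. Why calls changed was not tested, beyond the smaller number of samples when a library is left out. With 2 libraries per group, the median 95% interval reached 0.20 on the log2 scale to either side of a change and 0.28 for the difference between responses.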
